A study of Mus musculus with 7 samples.

Results

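Ptgds, Il33, Car2 and Apod are used as markers of the mature oligodendrocyte states MOL5 and MOL6, which the annotation of these cells joins as MOL5/6. The genes were taken by name, with earlier results of these data known, and are 4 of the 27998 genes of the count table. They are described across the 11 annotated clusters, chiefly the subclusters MOL5/6a to MOL5/6d against MOL1 and MOL2, and across 3 libraries of sorted oligodendrocyte lineage cells (OLCs).

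Mature oligodendrocytes wrap axons in myelin, and single-cell studies of the mouse divide them into states that share the myelin genes and differ in a smaller set of other genes. MOL5/6 is known as the main mature state of the adult forebrain, MOL2 is best known from white matter and the spinal cord, and MOL1 carries immediate early genes. Ptgds encodes lipocalin-type prostaglandin D synthase, a secreted enzyme and lipid carrier. Il33 encodes a nuclear cytokine that is released from damaged cells and acts through the receptor Il1rl1 with its partner Il1rap. Car2 encodes the cytosolic carbonic anhydrase long used as a marker of oligodendrocytes, and Apod encodes apolipoprotein D, a secreted lipocalin that binds lipids such as arachidonic acid.

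The study asked whether OLCs of ventral origin that fill the cortex after loss of the dorsal lineage resemble the cells they replace. Control dOLCs were TdTom+ cells, and control vOLCs GFP+ cells, of Emx1-Cre:Sox10-GFP-TdTom mice, in which Emx1-Cre acts in dorsal forebrain progenitors and switches the reporter that the Sox10 promoter drives. Ectopic vOLCs were GFP+ cells of mice that carried Sox10-GFP-DTA beside Emx1-Cre and Sox10-GFP-tdTom, in which the same Cre also turns on diphtheria toxin fragment A, so that dorsally derived OLCs are killed, although some remain. Mice of both sexes were taken at P90 on a mixed C57BL/6-B6CBA background, 4 of the control genotype and 2 of the ablated one, pooled within a library and not told apart in the files, so that each condition is 1 library. The labels name motor and cingulate cortex as the source, while the methods speak of the neocortex and of the corpus callosum, and they state that a further cohort was left out because of batch effects, for which stress in the sort was named as the likely source.

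The libraries held 5804 cells for control dOLCs, 925 for control vOLCs and 2562 for ectopic vOLCs. The median cell had 3489.5, 5022 and 5318.5 unique molecular identifiers (UMIs), in that order. Each gene's UMIs were added up per library and cluster and scaled to 1000000 UMIs of that sum (CPM), and ratios of CPM are on the log2 scale. Intervals in brackets hold at 95% for counting error alone and leave out the variation from mouse to mouse. Because each condition is 1 library and the clusters were drawn from these same cells, no p-value is given, and a mean ± SD over libraries describes 3 different populations rather than replicates. Between libraries, 39 barcode sequences occurred more than once. Leaving their cells out was tried for MOL5/6 to MOL2 and to MOL1, and within MOL5/6 for ectopic and control vOLCs over control dOLCs. None of these ratios of the members moved beyond its counting interval or its spread over libraries. Some groups were small, with 6 cells of MOL2b, 34 of MOL1 and 35 of MOL5/6d in control vOLCs and 42 of MOL5/6b in ectopic vOLCs.

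On the mouse build GRCm38 the 4 genes lie on 4 chromosomes, and no other annotated gene overlaps any of them. Ptgds spans chr2:25466709-25470046 on the minus strand, Il33 chr19:29925114-29960718 on the plus strand, Car2 chr3:14886273-14900770 on the plus strand and Apod chr16:31296192-31314808 on the minus strand. Car2 lies 13750 bases from Car3, a related carbonic anhydrase. The 250 bases before the RefSeq start sites of Il33 and Apod are shown because these genes took opposite sides among the mature clusters, Il33 higher in MOL5/6 and Apod higher in MOL2. They are from GRCm38.p6, and the windows are chr19:29924863-29925112 and chr19:29945540-29945789 on the plus strand for the first and second start of Il33, and chr16:31314809-31315058 on the minus strand for Apod. The second Il33 window lies within the span of the gene, outside its annotated exons. Capitals mark every match, on either strand, to TATAAA, the TATA box, or to ACAAAG or ACAATG, forms of the short element that SOX proteins bind.
Il33, first start: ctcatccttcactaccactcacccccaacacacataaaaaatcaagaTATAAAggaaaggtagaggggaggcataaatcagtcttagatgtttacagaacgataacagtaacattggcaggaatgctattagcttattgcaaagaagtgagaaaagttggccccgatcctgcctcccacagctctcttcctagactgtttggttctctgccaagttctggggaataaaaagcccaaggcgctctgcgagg
Il33, second start: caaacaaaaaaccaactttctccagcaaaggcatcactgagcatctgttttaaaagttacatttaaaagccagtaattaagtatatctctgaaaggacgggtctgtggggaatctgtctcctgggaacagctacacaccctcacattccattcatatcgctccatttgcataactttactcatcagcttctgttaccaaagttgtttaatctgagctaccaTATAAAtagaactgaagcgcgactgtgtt
Apod: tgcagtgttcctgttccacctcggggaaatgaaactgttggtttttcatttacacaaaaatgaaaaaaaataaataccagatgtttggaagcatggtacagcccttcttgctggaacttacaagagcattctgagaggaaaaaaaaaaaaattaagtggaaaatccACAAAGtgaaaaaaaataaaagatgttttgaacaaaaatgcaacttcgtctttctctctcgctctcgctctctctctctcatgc
The first Il33 window held TATAAA at 203 to 198 bases before the start, and the second held it at 29 to 24 bases before the start. The Apod window held ACAAAG at 84 to 79 bases before the start. No matches overlapped. Of 32851 windows of this length over all genes, 12.4% held TATAAA, 16.5% ACAAAG and 10.7% ACAATG. The Ptgds window held none of these letters, and its bases are not printed because 93 of its 250 bases lie in an annotated exon of Ptgds. A match is a run of letters, and no binding was measured here.

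The label of MOL5/6 marker held in part. Set against MOL2 as a whole, Ptgds and Il33 were higher in MOL5/6 in all 3 libraries. Car2 was at nearly the same level, and Apod was lower in MOL5/6 in all 3. Set against MOL1, none of the 4 genes differed by as much as 2-fold in any library. All 4 were higher in MOL5/6 than in oligodendrocyte progenitor cells (OPCs), by at least 4.09-fold in every library, and were among the 7.63% of 7139 genes that were at least 2-fold higher in all 3 libraries.

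In MOL5/6, Ptgds had 30987 CPM for control dOLCs, 40972 for control vOLCs and 36045 for ectopic vOLCs. In MOL2 it had 10311, 9214 and 6152 CPM. The groups were far apart, and the lowest MOL5/6 library stood above the highest MOL2 library. The log2 ratio of MOL5/6 to MOL2 was 1.59 (1.57 to 1.60), 2.15 (2.12 to 2.18) and 2.55 (2.52 to 2.58) in the same order of libraries, with a mean of 2.10 ± 0.48 (SD, n = 3 libraries). In no library did a subcluster of MOL5/6 reach down to one of MOL2, and the lowest MOL5/6 subcluster against the highest MOL2 subcluster still gave a mean of 1.36.

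Across the 11 clusters, Ptgds was highest in MOL5/6a, at 42564 ± 5051 CPM (SD, n = 3 libraries), and its range did not overlap that of the next cluster, MOL5/6b, at 35216 ± 3980.5. The MOL5/6a range, from 39018 CPM, did overlap that of MOL1, which reached 40890 CPM. MOL5/6b, MOL5/6d at 34823 ± 1659 and MOL1 at 34454 ± 7243 overlapped in turn. MOL5/6c had 27481 ± 2495 CPM, close to the myelin-forming oligodendrocytes of MFOLb at 26923 ± 2898. The cells between OPCs and myelin-forming oligodendrocytes (COP/NFOL/MFOLa) had 17049 ± 2113 CPM, a range that overlapped that of MOL2b. MOL2b, MOL2a, OPCs and cycling OPCs followed with 10398, 8699, 4245 and 3417 CPM. The step from MOL5/6c to MOL2 was thus larger than any step within MOL5/6.

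In MOL5/6, Il33 had 711 CPM for control dOLCs, 641 for control vOLCs and 1136 for ectopic vOLCs. In MOL2 the values were 377, 182 and 462 CPM, all below the lowest MOL5/6 library. The log2 ratio was 0.91 (0.83 to 1.00), 1.82 (1.62 to 2.02) and 1.30 (1.19 to 1.41), with a mean of 1.34 ± 0.45 (SD, n = 3 libraries). The separation was narrower between subclusters, where MOL5/6c had 576 ± 178 CPM and MOL2b 452 ± 91.5, with overlapping ranges, and the lowest MOL5/6 subcluster against the highest MOL2 subcluster gave a mean log2 ratio of 0.29.

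Il33 was highest in MOL5/6d, at 944 ± 186 CPM, and in MOL5/6a, at 903 ± 217, whose ranges overlapped. MOL1 had 675 ± 198 CPM, MFOLb 663 ± 238 and MOL5/6b 638 ± 74.4, again with overlap, and MOL5/6c had 576 ± 178 and MOL2b 452 ± 91.5. It was lower in MOL2a, at 287 ± 99.1, in COP/NFOL/MFOLa, at 152 ± 13.2, and in OPCs, at 98.9 ± 41.6. MOL2a was thus further from MOL5/6 in Il33 than MOL2b was, and the MOL2b and MOL2a ranges did not overlap.

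In MOL5/6, Car2 had 5751 CPM for control dOLCs, 6995 for control vOLCs and 6670.4 for ectopic vOLCs, and in MOL2 it had 6159.8, 7153 and 6731 CPM. Within each library the pooled clusters differed little, with log2 ratios of MOL5/6 to MOL2 of -0.10 (-0.12 to -0.08), -0.03 (-0.07 to 0.00) and -0.01 (-0.04 to 0.02). Car2 of MOL5/6b and of MOL5/6c was below that of MOL2a and of MOL2b in every library. Its level placed MOL5/6a (7271 ± 796 CPM), MOL2b (7257 ± 605) and MOL5/6d (7165 ± 380) together at the top, with overlapping ranges. The lowest mature cluster was MOL5/6c, at 5024 ± 167 CPM, and its range lay above that of COP/NFOL/MFOLa, at 1779 ± 139. MFOLb, at 5205 ± 297 CPM, overlapped MOL5/6c and MOL5/6b, so that Car2 set COP/NFOL/MFOLa and the OPCs apart from all later clusters, and not MOL5/6 from MOL2.

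In MOL5/6, Apod had 3676 CPM for control dOLCs, 4889.5 for control vOLCs and 5114 for ectopic vOLCs. The MOL2 values were higher in each library, at 7587, 11190.4 and 10194 CPM, and the ranges of MOL5/6 and MOL2 did not overlap. The log2 ratio of MOL5/6 to MOL2 was -1.05 (-1.07 to -1.02), -1.19 (-1.23 to -1.16) and -0.995 (-1.02 to -0.97). Here the direction was the opposite of that of Ptgds and Il33, with an SD of 0.10 over libraries for the pooled clusters. Against MOL2a alone the mean was -1.39 ± 0.18. Against MOL2b alone it was -0.23 ± 0.36, with 1 library above 0.

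The high MOL2 value of Apod came from MOL2a, at 12066 ± 3105 CPM, a range above that of all other clusters. MOL2b had 5335 ± 814 CPM and lay between MOL5/6a, at 6512 ± 1048, and MOL1, at 4762 ± 969.7, with ranges that overlapped in turn. Within MOL5/6, MOL5/6a was above MOL5/6d in all 3 libraries, by a mean log2 ratio of 1.04 ± 0.10, and above MOL5/6c by 1.27 ± 0.17. No other member varied this much among the MOL5/6 subclusters, since the same pairs gave 0.28 and 0.63 for Ptgds, -0.07 and 0.67 for Il33, and 0.02 and 0.53 for Car2.

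**Figure D1:**
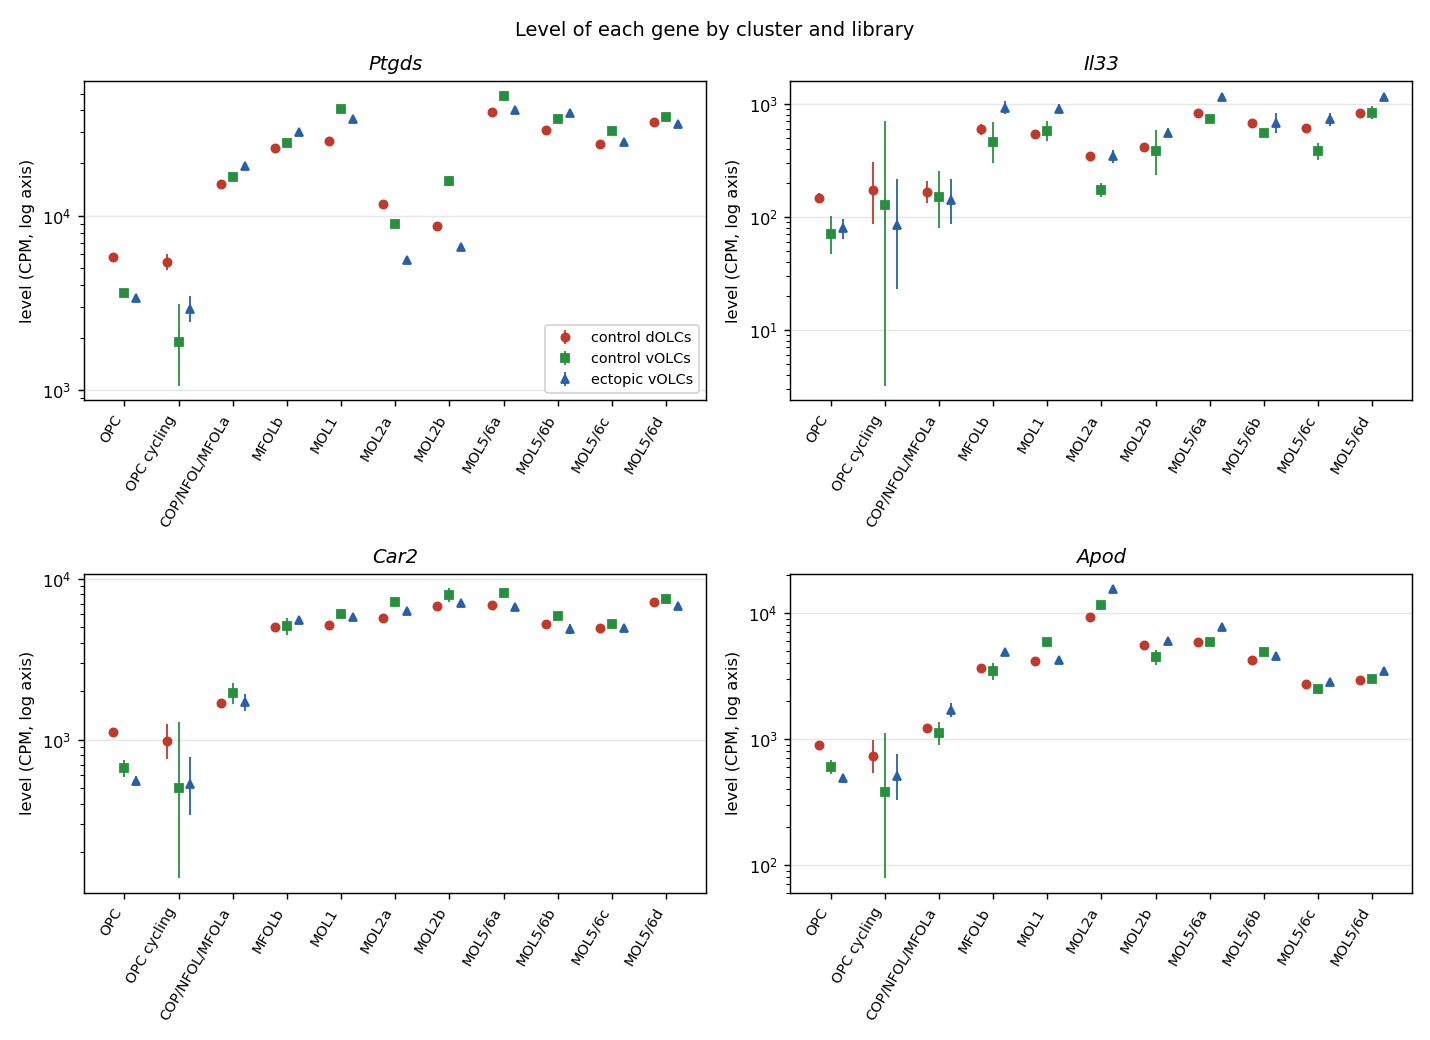
Level of each gene (CPM, log axis) in the 11 annotated clusters, with 1 point per library and bars for the 95% counting interval. Ptgds drops at MOL2a and MOL2b, and Apod peaks at MOL2a. Among the mature clusters the mean of Car2 over libraries runs from 5024 CPM in MOL5/6c to 7271 CPM in MOL5/6a.

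Against all genes, Ptgds stood at rank 4 and Il33 at rank 24 from the highest of 6449 genes past the filter, by the median over libraries of the MOL5/6 to MOL2 ratio. Car2 stood at rank 3073, near the middle, and Apod at rank 87 from the lowest. Genes at least 2-fold higher in MOL5/6 in all 3 libraries made up 0.419% of those past the filter, and of the 4 members Ptgds alone was among them. Il33 missed the rule in control dOLCs, at 1.88-fold. Genes at least 2-fold lower in all 3 libraries made up 1.04%, and Apod missed that rule only in ectopic vOLCs, where its level in MOL5/6 was 0.502 times that in MOL2. The clusters were drawn from the expression of these same cells, so these counts describe the clusters and test nothing.

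MOL2 was checked with Klk6, Hopx and Anxa5, genes known from that state. All 3 were at least 2-fold lower in MOL5/6 than in MOL2 in every library. Klk6, a secreted serine protease, had 21.0, 56.2 and 25.2 CPM in MOL5/6 against 426, 1395 and 725 CPM in MOL2. Within MOL2, Klk6 was higher in MOL2a than in MOL2b in all 3 libraries, by a mean log2 ratio of 2.46 ± 1.32. Hopx was also lower in MOL5/6 than in MFOLb, by a mean log2 ratio of -3.08 ± 0.34, beside -3.47 ± 0.38 for MOL2. Grm3 and Jph4, other genes listed for MOL5/6, did not pass the 2-fold rule, with a median log2 ratio to MOL2 of 0.26 beside -0.05 for all genes.

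MOL1 was close to MOL5/6 for the members. The log2 ratio of MOL5/6 to MOL1 for Ptgds was 0.22 (0.20 to 0.24), 0.00 (-0.03 to 0.04) and 0.01 (-0.01 to 0.03), with the libraries in the order used above. Il33 gave 0.39 (0.26 to 0.53), 0.14 (-0.16 to 0.46) and 0.33 (0.20 to 0.47), and Car2 gave values from 0.15 to 0.20. Apod was lower in MOL5/6 than in MOL1 in both control libraries, at -0.17 and -0.27, and higher in ectopic vOLCs, at 0.26 (0.20 to 0.33). No gene (0%) was at least 2-fold higher in MOL5/6 than in MOL1 in all 3 libraries, and 18 of 5983 (0.301%) were at least 2-fold lower. Of the 5 listed immediate early genes, Egr1, Fos, Fosb and Dusp1 passed the filter, and these 4 were among the 18. Against OPCs, 25.3% of genes were at least 2-fold lower.

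**Figure D2:**
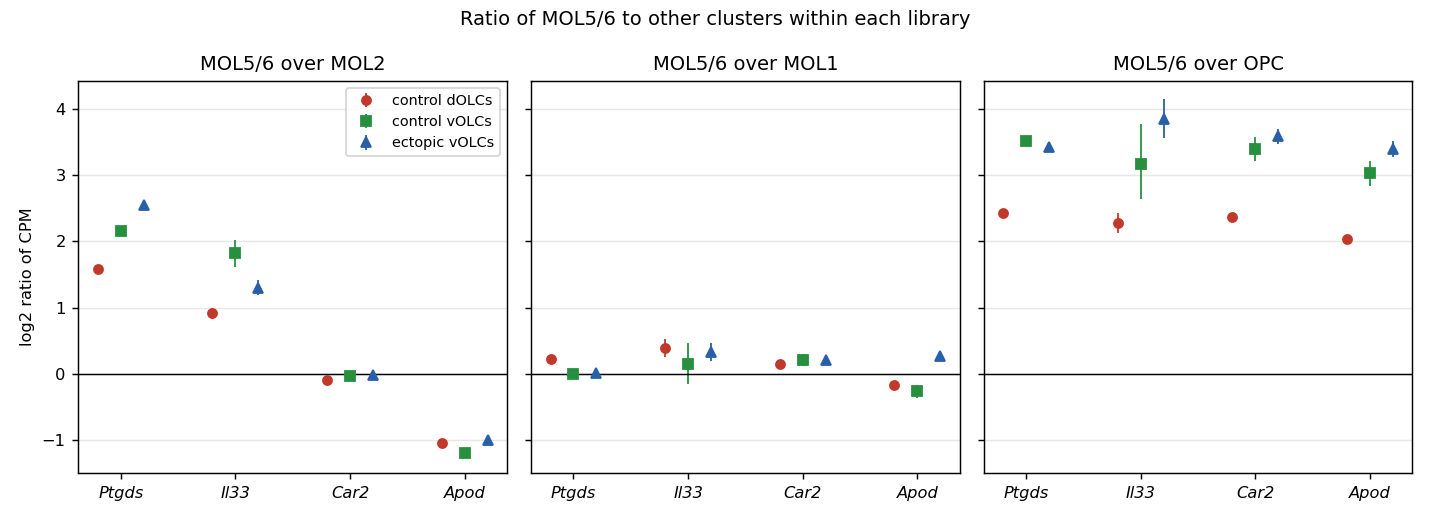
Log2 ratio of CPM of MOL5/6 to MOL2, to MOL1 and to OPCs for each gene, with 1 point per library and bars for the 95% counting interval. Over MOL2 the genes run from Ptgds (mean 2.10) to Apod (mean -1.08), over MOL1 all lie near 0, and over OPCs all lie above 2.

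The ectopic library was then set against the controls within MOL5/6. Il33 had 1136 (1116 to 1156) CPM there against 711 (697 to 725) in control dOLCs, which made it higher by 0.68 (0.64 to 0.71) on the log2 scale. It was also higher than in control vOLCs, at 641 (612 to 670.5) CPM, by 0.83 (0.76 to 0.90). The controls stood close together, at -0.15 (-0.22 to -0.08) for control vOLCs over control dOLCs. Il33 appears on the lists of genes that the study derived from these same cells as differing between ectopic and control oligodendrocytes, so its direction here is not independent evidence.

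Of the 4 members, Il33 alone was past 1.5-fold when scaled by total UMIs, where 1.13% of 5218 genes were at least 1.5-fold higher and 11.5% at least 1.5-fold lower in the ectopic library than in that of control dOLCs. It stood at rank 34 from the highest of those genes, and against control vOLCs at rank 18 of 5496, where 1.46% were at least 1.5-fold higher and 12.4% lower. With edgeR's TMM factors the median over all genes shifted up by 0.15, and the fold rule gave 166 higher and 376 lower genes in place of 59 and 600, and size factors gave 183 and 358. Under both scalings Il33, at 0.82 and 0.84, and Apod, at 0.62 and 0.64, were past 1.5-fold, so that 2 members rather than 1 were.

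Ptgds, Car2 and Apod took another order, in which the controls differed from each other. Ectopic vOLCs over control dOLCs gave a log2 ratio of 0.22 (0.21 to 0.22) for Ptgds, 0.21 (0.20 to 0.23) for Car2 and 0.48 (0.46 to 0.49) for Apod. Control vOLCs over control dOLCs gave 0.40 (0.39 to 0.41), 0.28 (0.26 to 0.30) and 0.41 (0.39 to 0.44), and none of the 4 members was past 1.5-fold there, where 2.56% of genes were higher and 0.731% lower. Ectopic vOLCs over control vOLCs gave -0.18 (-0.19 to -0.18), -0.07 (-0.09 to -0.05) and 0.06 (0.04 to 0.09). For these genes both libraries of ventral origin were above control dOLCs. For Car2 and Apod they lay near each other, while for Ptgds the ectopic library lay midway between the controls. For Il33 the ectopic library stood above both controls. The comparisons share libraries, so they are given side by side only.

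The libraries did not fill MOL5/6 with the same subclusters. MOL5/6b and MOL5/6c held 1947 and 928 of the 3777 MOL5/6 cells of control dOLCs, whereas MOL5/6a and MOL5/6d held 900 and 837 of the 1842 of ectopic vOLCs. In control vOLCs the largest were MOL5/6a, with 237 cells, and MOL5/6b, with 236 of 561. Since the members differ among these subclusters, each was also compared within them.

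Within MOL5/6a, Il33 had 825, 736 and 1149 CPM in the 3 libraries, and within MOL5/6d 839, 834 and 1159 CPM. Ectopic vOLCs over control dOLCs gave 0.48 (0.38 to 0.57) in MOL5/6a and 0.47 (0.40 to 0.53) in MOL5/6d. It was 0.26 (0.06 to 0.45) in MOL5/6c and 0.01 (-0.30 to 0.31) in MOL5/6b, of which the ectopic library held 42 cells and 95 Il33 UMIs. The ectopic value was thus above both controls within the subclusters that held most ectopic cells, by less than in MOL5/6 as a whole, and below 1.5-fold against control dOLCs. With the 4 subclusters weighted alike, the ratio was 0.33.

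Within no subcluster was Car2 of the ectopic library above that of control dOLCs, and the ratios were -0.04 (-0.08 to -0.01) in MOL5/6a, -0.10 (-0.21 to 0.01) in MOL5/6b, -0.01 (-0.08 to 0.07) in MOL5/6c and -0.09 (-0.11 to -0.06) in MOL5/6d. The value of 0.21 over all MOL5/6 cells stood beside the larger share of MOL5/6a and MOL5/6d, the MOL5/6 subclusters where Car2 was highest. Ptgds gave 0.05 (0.03 to 0.06), 0.33 (0.29 to 0.37), 0.03 (0.00 to 0.06) and -0.02 (-0.03 to -0.01) in MOL5/6a to MOL5/6d. Apod kept a difference in MOL5/6a, at 0.39 (0.35 to 0.42), and in MOL5/6d, at 0.24 (0.20 to 0.27), and gave 0.09 (-0.03 to 0.20) in MOL5/6b and 0.05 (-0.05 to 0.15) in MOL5/6c. For Apod in MOL5/6a to MOL5/6d, ectopic vOLCs over control vOLCs gave 0.39, -0.11 (-0.24 to 0.01), 0.19 and 0.21. Control vOLCs over control dOLCs gave 0.00, 0.20, -0.14 and 0.03 there. In MOL5/6a the controls had almost the same Apod level, 5902 and 5911 CPM, below the ectopic 7722. In the same cells the 8 astrocyte markers summed to 243 and 242 CPM for control dOLCs and control vOLCs and to 299 CPM for the ectopic library, and the median percent of mitochondrial UMIs was 6.68, 6.73 and 8.73. In MOL5/6d these values were 213, 142 and 181 CPM and 4.06, 4.21 and 4.52%. Their part in the Il33 and Apod differences was not tested.

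MOL2 was also made up differently, with MOL2b holding 235 of 733 MOL2 cells of control dOLCs, 6 of 185 of control vOLCs and 106 of 221 of ectopic vOLCs. In MOL2, Ptgds of the ectopic library was below both controls. It had 6152 CPM against 10311 in control dOLCs, a log2 ratio of -0.75 (-0.78 to -0.71), at least 1.5-fold lower as were 10.9% of genes. The ratio was -0.58 (-0.62 to -0.54) against control vOLCs. In MOL2a alone, 11641, 8918 and 5538 CPM gave -1.07 (-1.12 to -1.02) over control dOLCs and -0.69 (-0.74 to -0.63) over control vOLCs. Apod ran the other way in MOL2a, at 9289, 11491 and 15419 CPM, which gave 0.73 (0.70 to 0.77) and 0.42 (0.39 to 0.46). In ectopic MOL2a cells, then, Ptgds was lowest and Apod highest of the 3 libraries, whereas Il33, at 345, 173 and 344 CPM, and Car2, at 5674, 7119 and 6270 CPM, were not lowest there.

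Ptgds was spread unevenly over the cells of MOL2a. With each cell thinned to 1000 UMIs, the quartiles of Ptgds UMIs per cell were 4, 9 and 17 for control dOLCs, 3, 5 and 14 for control vOLCs and 2, 3 and 7 for ectopic vOLCs. In MOL5/6a they were 26, 37 and 52 for control dOLCs, 31, 46 and 63 for control vOLCs, and 25, 39 and 53 for the ectopic library. In each library the upper quartile of MOL2a therefore lay below the lower quartile of MOL5/6a.

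In MOL1, Il33 of ectopic vOLCs was above control dOLCs by 0.74 (0.55 to 0.92) and above control vOLCs by 0.64 (0.31 to 0.98). In MOL1, 5.06% of genes were at least 1.5-fold higher in the ectopic library than in control dOLCs, and 16.8% than in control vOLCs, Il33 among them in both. It stood at rank 78 of 3519 genes against control dOLCs and at rank 270 of 1889 against control vOLCs, whose MOL1 held 34 cells. In MOL2 it was above control dOLCs by 0.29 (0.16 to 0.42) and above control vOLCs by 1.34 (1.13 to 1.57), where control vOLCs had the lowest value of the 3, at 182 CPM. Genes at least 1.5-fold higher than in MOL2 of control vOLCs made up 5.7%, and Il33 of control vOLCs was itself among the 5.05% at least 1.5-fold below control dOLCs. Within the subclusters, Il33 of ectopic vOLCs over control vOLCs was lower than in MOL2 as a whole, at 0.99 (0.72 to 1.27) in MOL2a and 0.54 (-0.11 to 1.26) in MOL2b. Over control dOLCs it was 0.00 (-0.22 to 0.21) in MOL2a and 0.42 (0.24 to 0.59) in MOL2b.

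**Figure D3:**
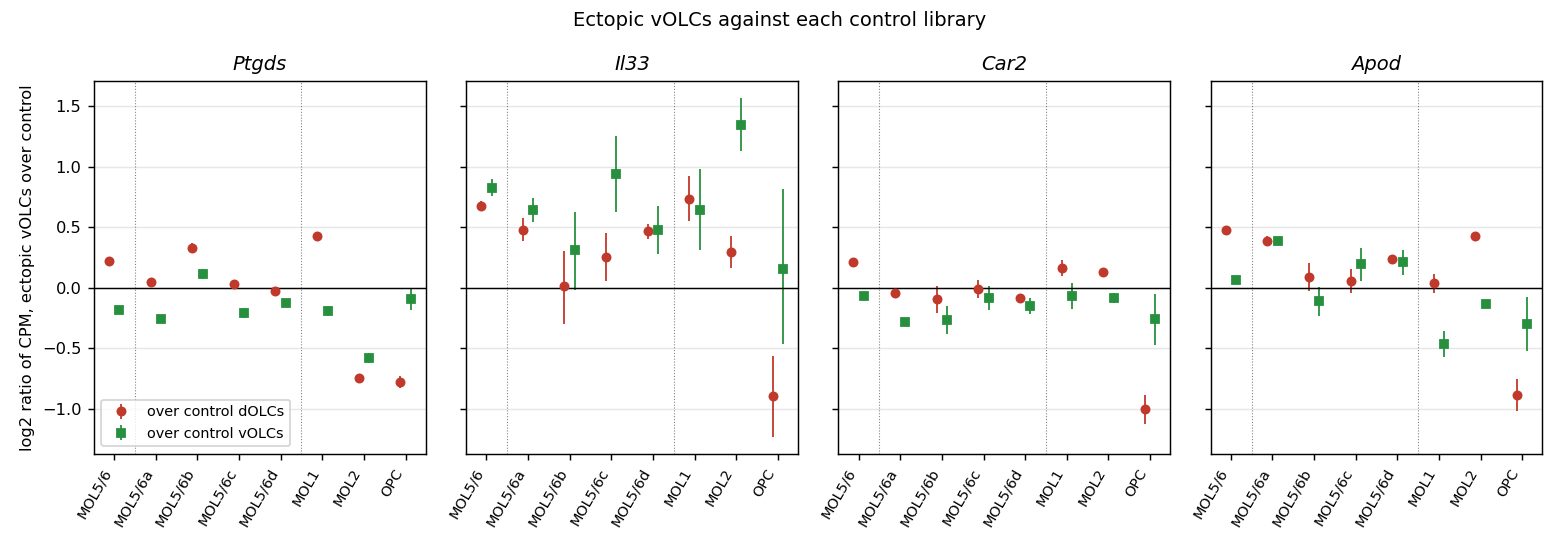
Log2 ratio of CPM of ectopic vOLCs to control dOLCs (circles) and to control vOLCs (squares) for each gene, over MOL5/6, its 4 subclusters, MOL1, MOL2 and OPCs, with bars for the 95% counting interval. Il33 lies above 0 against both controls in MOL5/6, MOL5/6a, MOL5/6c and MOL5/6d, while Car2 lies at or below 0 within each MOL5/6 subcluster.

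The share of cells with an Il33 UMI followed the level. With each cell thinned to 1000 UMIs, an Il33 UMI was found in 46.7% (45.1 to 48.3), 42.8% (38.6 to 47.0) and 63.2% (60.9 to 65.4) of MOL5/6 cells, in the order control dOLCs, control vOLCs, ectopic vOLCs. Unthinned, the shares were 82.1%, 84.0% and 96.4%, where the median cell had 3491, 5069 and 5478.5 UMIs. OPCs, taken as the background, gave thinned shares of 11.5%, 5.79% and 8.48%, and unthinned shares of 31.7%, 22.3% and 23.9%, where the median cell had 2795, 3454 and 3421.5 UMIs. MOL5/6 thus stood well above OPCs of the same library at equal depth. MOL2 lay between, at 29.2%, 16.8% and 30.3%.

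**Figure D4:**
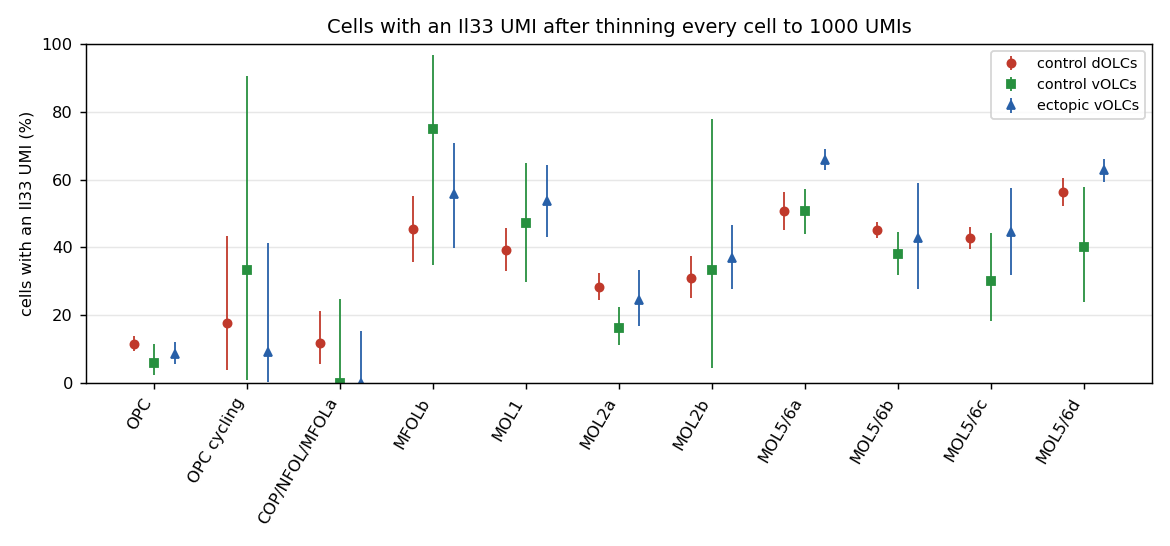
Share of cells with an Il33 UMI (%) by cluster and library, with every cell thinned to 1000 UMIs and bars for the 95% Clopper-Pearson interval. Ectopic vOLCs of MOL5/6a (65.9%) and MOL5/6d (62.7%) stand above both controls, and OPCs lie between 5.79% and 11.5%.

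At equal depth, all 4 members were found together in 43.1%, 41.2% and 61.2% of MOL5/6 cells. The shares were 28.6%, 16.8% and 28.5% in MOL2, 38.0%, 47.1% and 51.6% in MOL1, and 3.99%, 0.826% and 0.303% in OPCs. In MOL5/6 each of the 3 members other than Il33 was found in at least 93.2% of thinned cells in every library, so that Il33 limited the share there most. The 4 genes took 4.11%, 5.35% and 4.90% of all UMIs of MOL5/6, with Ptgds alone at 3.10%, 4.10% and 3.60%.

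Within a cluster and library the members hardly followed each other from cell to cell. Over 11 sets of cells, Spearman's rho of thinned counts ran from -0.24 to 0.25 for all pairs, and for Ptgds and Apod from -0.24 in MOL5/6c of control dOLCs to 0.14 in MOL5/6b of control vOLCs. Such weak values are given as a description only. Over the 20 combinations of mature cluster and library with at least 20 cells, Pearson's r of log2(CPM + 10) was 0.70 for Ptgds and Il33, -0.59 for Ptgds and Apod and -0.50 for Il33 and Apod. The pairs with Car2 gave -0.10 for Ptgds, 0.08 for Il33 and 0.32 for Apod. These points share libraries and depth, and r is given as a description.

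The genes with the profile most like that of each member were ranked by the same r over 27 combinations of cluster and library, OPCs included, among 7252 genes. For Ptgds they were Rasal1, at 0.90, Dusp10, Timp2, Aldh3b1 and Opalin, of which Opalin encodes a myelin membrane protein and Timp2 an inhibitor of metalloproteinases. For Il33 they were Xaf1, at 0.89, Cryab, Macrod1, Csrp1 and Rpsa, of which Cryab encodes a small heat shock protein. Car2 was closest to Gatm, at 0.99, Kctd13, Glul, Gnai1 and Trim59, where Gatm acts in creatine synthesis and Glul encodes glutamine synthetase. For Apod they were Gjb1, at 0.97, Trf, Gstm7, Serpinb1a and Arsg, where Gjb1 encodes a gap junction protein of myelin and Trf the iron carrier transferrin. Trf shared the MOL2 side of Apod, with a mean over libraries of 14432 CPM in MOL2 and 8212 in MOL5/6.

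In OPCs the members were low and moved with the library. Ptgds had 5773 CPM for control dOLCs, 3595 for control vOLCs and 3367 for ectopic vOLCs. Il33 had 147, 70.9 and 79.0 CPM, Car2 1116, 666 and 556, and Apod 899, 600.4 and 487. Control dOLCs were thus the highest for all 4, and all 4 were at least 1.5-fold lower in ectopic OPCs than in OPCs of control dOLCs, where 5.79% of 6110 genes were. The log2 ratios were -0.78 for Ptgds, -0.89 (-1.23 to -0.56) for Il33, -1.01 for Car2 and -0.88 for Apod. The Il33 value rests on 95 UMIs in ectopic OPCs, and its interval also holds differences below 1.5-fold. Ptgds, Car2 and Apod are on the study's own list for OPCs, drawn from these cells, so that list and these values are not independent.

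Control vOLCs, which carried no toxin, were also lower than control dOLCs for Ptgds, Il33 and Car2 by at least 1.5-fold, where 12.1% of 5863 genes were, and Apod gave a log2 ratio of -0.58 (-0.78 to -0.39). Il33, on 28 UMIs in control vOLCs, gave -1.05 (-1.66 to -0.49), and Car2 -0.74 (-0.93 to -0.56). Both intervals also hold differences below 1.5-fold. Genes of mature oligodendrocytes were likewise highest in OPCs of control dOLCs. The OPC level as a share of the MOL5/6 level was 18.6% to 24.4% for the members in control dOLCs, 8.77% to 12.3% in control vOLCs and 6.96% to 9.51% in ectopic vOLCs. For 11 genes of mature oligodendrocytes, such as Mog, Mag and Mobp, it ran from 16.1% to 30.6% (median 21.0%), from 6.12% to 17.7% (median 10.6%) and from 4.98% to 16.1% (median 8.17%). The members lay inside the range of those genes in every library. Free RNA from lysed oligodendrocytes was not measured, and its part in these OPC values was not tested. In the other direction, the summed level of 6 OPC markers in MOL5/6 was 132, 71.2 and 56.7 CPM, again highest in control dOLCs.

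**Figure D5:**
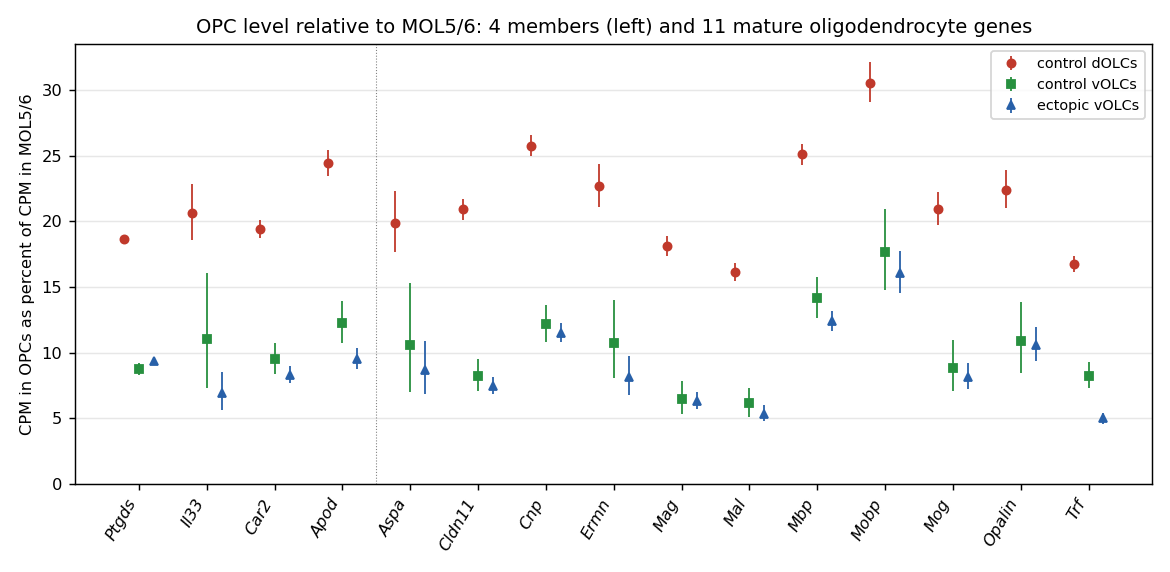
Level in OPCs as a percent of the level in MOL5/6 of the same library, for the 4 members (left of the dotted line) and 11 genes of mature oligodendrocytes, with bars for the 95% counting interval. For each gene control dOLCs lie highest, and the members fall within the range of the mature genes.

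The other genes of the members' pathways were mostly low. Of 24 genes of prostaglandin synthesis, transport and reception, 5 passed the filter of 50 UMIs and 10% of cells in MOL5/6, and none was past 1.5-fold between ectopic vOLCs and control dOLCs. Their median log2 ratio was 0.10, beside -0.03 for all genes. The cyclooxygenase genes, which make the substrate of Ptgds, were scarce, with Ptgs1 at 4, 0 and 1 UMIs in the 3 libraries and Ptgs2 at 0. The receptors Ptgdr and Ptgdr2, which bind prostaglandin D, were also at 0 UMIs in MOL5/6 of each library, which allows levels of up to 0.202, 1.03 and 0.284 CPM (a count of 3). Between clusters, Pla2g4a, the phospholipase that frees arachidonic acid, was at least 2-fold lower in MOL5/6 than in MOL2, with 11.8, 11.6 and 11.6 CPM against 39.1, 56.3 and 41.9.

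Of 22 genes of Il33 and related interleukin signalling, 8 passed the filter and 2 were at least 1.5-fold lower in ectopic MOL5/6 cells than in those of control dOLCs. Genes this much lower made up 11.5% of all genes, and the median of the 8 was -0.32, beside -0.03 for all genes. Those lower were Il1rap, the co-receptor, at 151, 151 and 95.7 CPM in the 3 libraries, and Tab2, a signalling adaptor, at 49.4, 43.8 and 29.2 CPM. The log2 ratio of Il1rap, -0.66, fell short of 1.5-fold after the TMM shift of 0.15. Il1rl1, the receptor of Il33, was at 0 UMIs in MOL5/6 of each library, with the same upper limits as above. Of 23 genes of carbonic anhydrases and bicarbonate transport, 3 passed the filter and none was past 1.5-fold, with a median of -0.03. Car14, a membrane carbonic anhydrase, had 227, 258 and 264 CPM, and the bicarbonate exchanger Slc4a2 had 141, 134 and 108 CPM.

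Of 18 lipocalins, apolipoproteins and their receptors, 5 passed the filter and 1 was at least 1.5-fold lower in ectopic MOL5/6 cells, where 11.5% of all genes were, with a median of -0.05. This was the lipoprotein receptor Vldlr, at 151, 115 and 88.1 CPM. Apoe, the main apolipoprotein of the brain, had 5246, 6306 and 5083 CPM in MOL5/6 and 2884, 2957 and 1899 CPM in MOL2, so that it was on the MOL5/6 side where Apod was on the MOL2 side. The 11 genes of mature oligodendrocytes all passed the filter and none was past 1.5-fold between ectopic vOLCs and control dOLCs in MOL5/6, with a median of 0.24. Ptgds and Car2, at 0.22 and 0.21, thus lay near the median of the mature genes, while Apod, at 0.48, and Il33, at 0.68, lay above the highest of them, Opalin, at 0.36.

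Ptgds and Apod are also known from other cells of the brain and its coverings, so markers of those cells were read in MOL5/6. Of 7 markers of leptomeningeal fibroblasts, 5 or 6 were at 0 UMIs, Dcn and Lum among them, and their summed level was 5.26, 7.19 and 4.54 CPM. Of 6 markers of the choroid plexus, 3 or 4 were at 0, Ttr among them, and the sum of 1880 to 2312 CPM was nearly all Enpp2, which oligodendrocytes also express. Astrocyte markers summed to 272, 243 and 230 CPM, with Aqp4 at 3.23, 0.685 and 2.55 CPM, and the 8 microglial markers to 31.7, 35.6 and 30.5 CPM. Endothelial markers summed to between 2.65 and 7.88 CPM, those of pericytes and smooth muscle to between 0.284 and 0.943 CPM, and those of neurons to between 8.56 and 20.0 CPM. None of these sums was highest in ectopic vOLCs over all MOL5/6 cells. Within the subclusters, that of astrocytes was highest there in MOL5/6a, as given above, and in MOL5/6c, at 253 CPM against 247 and 169. The neuronal sum in MOL5/6c, at 18.7 CPM against 18.2 and 0, and the fibroblast sum in MOL5/6b, at 7.20 against 7.12 and 4.17, were also highest there. These ectopic sums rest on 6 UMIs and 1 UMI, too few to rank the libraries.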

How the data were processed

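Cells were sorted and sequenced by 10x Genomics droplets, as 1 library per condition. The authors aligned reads to mm10 and counted UMIs with Cell Ranger, for which the submitters' notes give version 2.1.1 and the methods another, and clustered the cells in Seurat. The deposited values are UMI counts per gene and cell, with the authors' annotation of each cell's library, cluster and percent of mitochondrial UMIs. Of 10081 barcodes, 9291 were kept, those with more than 200 and fewer than 3000 genes and less than 15% mitochondrial UMIs, with 1257 to 12180 UMIs per cell.

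The genes, lists and comparisons were chosen with earlier results of these data known. UMIs were added up per library and cluster and divided by their total to give CPM. Intervals are exact Poisson (levels), conditional binomial (ratios) and Clopper-Pearson (shares). With 1 library per condition no test was made. Genes counted against a fold had at least 50 UMIs and a UMI in at least 10% of cells of 1 group, and the fold was 1.5 between libraries, or 2 in each of 3 libraries between clusters. The genes named beside the members are the 5 of the most similar profile, among those with at least 500 UMIs, and listed genes that passed a fold or define a list. Shares of cells and quartiles were taken after thinning each cell to 1000 UMIs, which every cell reached.

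Alternatives were TMM factors (edgeR 4.0.16), size factors (DESeq2 1.42.0), no filter on low genes, totals without the members and mitochondrial genes, thinned counts, means of cells, a limit of 10% mitochondrial UMIs, and high doublet scores left out. Scrublet (scanpy 1.11.5) called 42 cells (0.452%), a share taken as too low to rely on, so no doublets were removed, and 559 cells were left out by score as the alternative. Leaving out cells that share a barcode was chosen after seeing the data. Scripts were tested on simulated data. Positions are from GENCODE vM21 and promoter windows from RefSeq, which held 3 of the 4 members (Car2 is named only). Some listed genes are not reported here. Samples taken at P0 were not analysed here.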

Additional observations from a re-analysis of the deposited data

Results flagged for a closer look

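For 17 comparisons the log2 ratio between libraries had one sign in MOL5/6 and the other in another cluster, beyond counting error in both. Each rests on 1 library per condition, so these differences were not tested against the spread between mice.

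In 7 of them the other cluster was OPCs and the lower library was one of ventral origin against control dOLCs. For ectopic vOLCs over control dOLCs, the ratio in MOL5/6 was above that in OPCs by 1.00 for Ptgds, 1.57 for Il33, 1.22 for Car2 and 1.36 for Apod. For control vOLCs over control dOLCs it was above by 1.09 for Ptgds, 1.03 for Car2 and 0.99 for Apod. In these same OPCs Mog and Mag, which encode myelin proteins, were also lower in the ectopic library than in control dOLCs, at -1.02 and -1.42. The part of RNA from mature cells in these ratios was not tested.

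Ptgds also differed between MOL5/6 and MOL2. Over control dOLCs, ectopic vOLCs gave 0.22 in MOL5/6 and -0.75 in MOL2, a difference of 0.96, and control vOLCs gave 0.40 and -0.16, a difference of 0.57. In the parts of MOL2, the difference for ectopic vOLCs over control dOLCs was 1.29 with MOL2a and 0.61 with MOL2b, and for control vOLCs over control dOLCs 0.79 with MOL2a. In MOL2b control vOLCs over control dOLCs gave 0.87, on 6 cells of control vOLCs, and -0.38 in MOL2a, so that the -0.16 over MOL2 joins ratios of opposite sign. For ectopic vOLCs over control vOLCs, Ptgds was below 0 in MOL5/6 and above 0 in MFOLb, a difference of -0.39, where the smaller library held 8 cells.

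For Apod, the ratio of ectopic vOLCs to control vOLCs was above 0 in MOL5/6, at 0.06, and below 0 in OPCs, MOL1 and MOL2, with differences of 0.37, 0.53 and 0.20. In MOL2 the ratio was -0.13 over all cells but 0.42 in MOL2a and 0.44 in MOL2b, of which control vOLCs held 6 cells and ectopic vOLCs 106. MOL1 of control vOLCs held 34 cells. For control vOLCs over control dOLCs, Apod gave 0.41 in MOL5/6 and -0.32 in MOL2b, a difference of 0.73 that rests on the same 6 cells.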

How the results depend on the processing

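Of 152 values under an alternative, 92 moved by less than their spread or interval, 57 moved by more and 3 changed sign. Counts of genes have no spread, and for them a limit of 1.5-fold took its place. The sign changes were all between libraries in MOL5/6. With control vOLCs as the control of ectopic vOLCs, Ptgds gave -0.18 and Car2 -0.068, beside 0.83 for Il33 and 0.065 for Apod. With subclusters weighted alike, ectopic vOLCs over control dOLCs gave 0.10, 0.33, -0.059 and 0.23 for Ptgds, Il33, Car2 and Apod, and control vOLCs over control dOLCs gave 0.22, -0.24, 0.14 and 0.041. The direction of Il33 for ectopic vOLCs was the same under every alternative.

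For ectopic vOLCs over control dOLCs, in the order Ptgds, Il33, Car2 and Apod, TMM gave 0.36, 0.82, 0.36 and 0.62, and size factors 0.38, 0.84, 0.37 and 0.64. In the order Ptgds, Car2 and Apod, means of cells gave 0.26, 0.27 and 0.52, thinned counts 0.27, 0.27 and 0.53, and the limit of 10% mitochondrial UMIs 0.19, 0.18 and 0.43. Totals without the members and mitochondrial genes gave 0.23 for Ptgds, and leaving out high doublet scores 0.51 for Apod. For control vOLCs over control dOLCs, in that order, TMM and size factors both gave 0.45, 0.33 and 0.46, means of cells 0.42, 0.31 and 0.38, and thinned counts 0.42, 0.33 and 0.38. Totals without the members gave 0.43 for Ptgds and 0.31 for Car2, and leaving out high doublet scores 0.42 for Ptgds.

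Between clusters, the lowest MOL5/6 against the highest MOL2 subcluster gave means of 1.36 for Ptgds and 0.29 for Il33, by construction nearer than the pooled clusters. For Car2 and Apod, at -0.53 and -2.14, this pairing could only widen the difference and so could not reverse it. Apod in MOL5/6a over MOL2b gave 0.29 ± 0.17, above 0 in all 3 libraries. Car2 over MOL2 was -0.0014 with totals without the members. Over MOL1 it was 0.15 with size factors, 0.28 when thinned and 0.15 with the 10% limit.

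The counts of 59 higher and 600 lower genes became 166 and 376 with TMM and 183 and 358 with size factors, and the higher share of those counted went from 8.95% to 30.6% and 33.8%, as the median of all genes shifted by 0.15 and 0.16. With no filter they were 1386 and 4792 of 16036 genes. Il33 was past 1.5-fold in each of these settings, and of them Apod was past it with TMM and with size factors only.

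No paired analysis was possible because only 1 library stands for each condition, and leaving one out leaves no comparison. The 4 control and 2 ablated mice are not told apart, so differences between mice, sorts and conditions cannot be told apart. Intervals cover counting error only. The thinnest groups are those of control vOLCs, with 3 cycling OPCs, 6 cells of MOL2b, 8 of MFOLb and 13 of COP/NFOL/MFOLa.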
